A study of Mus musculus with 8 samples.

Results

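The nuclear genes of oxidative phosphorylation were described in the posterior capsule of the mouse knee. They were taken from the deposited table by gene symbol, as the symbols that start with Ndufa, Ndufb, Ndufc, Ndufs or Ndufv and a digit, Sdha to Sdhd, and those that start with Uqcr, with Cox and a digit of 4 to 8, or with Atp5. This gave 82 of 16464 genes, of which 37 were assigned to complex I, 4 to complex II, 8 to complex III, 16 to complex IV and 17 to complex V. The assignment followed the symbol alone, so that Ndufa4, whose product is now known as a subunit of cytochrome c oxidase, and Ndufa4l2, its relative, stand under complex I. Cox7a2l, a factor that helps respiratory complexes assemble into larger units, stands under complex IV. Mitochondrially encoded subunits could not be added, since 0 of these genes are listed in the table. The cast group held 4 libraries of wild type male C57BL/6 mice aged 10 weeks whose knee had been fixed at 140 degrees by a cast for 2 weeks, having been 8 weeks old at its start. The naive group held 4 libraries of wild type male C57BL/6 mice aged 10 weeks without a cast. The labels say neither whether each library came from a mouse of its own nor whether capsules were pooled, so p-values here speak of the spread among libraries, which may be technical.

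Oxidative phosphorylation takes place in the inner mitochondrial membrane. Complexes I and II pass electrons from NADH and succinate to ubiquinone, complex III passes them on to cytochrome c, and complex IV, cytochrome c oxidase, hands them to oxygen. Complexes I, III and IV pump protons, and complex V, the ATP synthase, uses the gradient to make ATP. Complex II is encoded wholly in the nucleus and the other complexes also hold mitochondrially encoded subunits. Several small subunits of complex IV exist as alternative forms from separate genes. Cox6a2, Cox7a1 and Cox8b are the forms of heart and skeletal muscle, with Cox7a1 and Cox8b also known from brown fat, and Cox6a1, Cox7a2 and Cox8a are their widely expressed partners. Cox4i2 is a form of lung and of cells at low oxygen, beside the common Cox4i1.

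The promoters of muscle-type and widely expressed subunits of complex IV are shown because the only gene past the test, Cox7a1, is of the muscle type. Each stretch of 300 bases reaches from 250 bases before to 50 bases after the start of the gene, 5′ to 3′ on the strand of the gene, in RefSeq promoters of build GRCm38.p6, and capitals mark matches to the motifs named after them.
Cox7a1 (chr7:30183921-30184220, plus strand): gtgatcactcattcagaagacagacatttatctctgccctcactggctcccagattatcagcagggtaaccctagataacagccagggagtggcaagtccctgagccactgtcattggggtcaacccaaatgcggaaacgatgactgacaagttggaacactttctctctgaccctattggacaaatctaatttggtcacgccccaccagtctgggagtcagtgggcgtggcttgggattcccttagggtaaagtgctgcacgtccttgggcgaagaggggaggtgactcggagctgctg
Cox8b (chr7:140900397-140900696, minus strand): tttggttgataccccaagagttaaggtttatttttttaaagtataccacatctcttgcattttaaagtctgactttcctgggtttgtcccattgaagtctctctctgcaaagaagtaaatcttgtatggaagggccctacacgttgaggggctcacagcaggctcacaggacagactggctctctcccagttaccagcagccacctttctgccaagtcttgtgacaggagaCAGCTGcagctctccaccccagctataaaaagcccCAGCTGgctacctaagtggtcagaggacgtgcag
Cox6a1 (chr5:115348909-115349208, minus strand): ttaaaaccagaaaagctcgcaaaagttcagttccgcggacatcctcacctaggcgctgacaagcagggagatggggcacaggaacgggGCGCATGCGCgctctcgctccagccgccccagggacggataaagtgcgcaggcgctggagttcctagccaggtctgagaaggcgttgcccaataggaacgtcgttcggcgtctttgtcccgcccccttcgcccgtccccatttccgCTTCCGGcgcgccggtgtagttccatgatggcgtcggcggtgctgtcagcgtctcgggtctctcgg
Cox8a (chr19:7217567-7217866, minus strand): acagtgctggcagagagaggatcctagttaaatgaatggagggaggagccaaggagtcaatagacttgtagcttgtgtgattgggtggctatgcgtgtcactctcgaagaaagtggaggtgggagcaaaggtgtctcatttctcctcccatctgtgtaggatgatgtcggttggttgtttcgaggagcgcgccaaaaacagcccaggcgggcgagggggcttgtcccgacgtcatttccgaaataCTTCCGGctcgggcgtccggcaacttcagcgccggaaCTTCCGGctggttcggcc
The searched motifs were GCATGCGC, a core of the site of the respiratory factor NRF1, CCGGAAG, a site of ETS factors such as GABP, AAGATGG of YY1, AAGGTCA of the ERR nuclear receptors, and CAGCTG, an E-box of the kind used by myogenic factors. Both strands were searched and matches may overlap. The Cox6a1 window held the NRF1 core, within GCGCATGCGC, and an ETS match. The Cox8a window held a pair of ETS matches, the Cox8b window a pair of E-boxes, and the Cox7a1 window no match. The window of Cox7a2, its widely expressed partner, which is not printed, also held no match. RefSeq promoters were found for 68 of the 82 genes, 3 of them by synonym; Cox6a2 was not among them. NRF1 cores were in 10 of the 68 (14.7%), against 5.40% of 11315 tested genes with a promoter and 2.71% of all 32851 promoters. ETS matches were in 16 (23.5%, against 17.7% of tested genes and 8.86% of all promoters). YY1 matches were in 12 (17.6%, against 7.96% and 6.34%) and ERR matches in 8 (11.8%, against 4.03% and 4.72%). E-boxes were in 6 (8.82%, against 18.5% and 16.3%). These are counts of letters in the windows.

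The deposited values are normalised read counts, from which whole reads could be recovered. Gene values below are such counts, for replicates 1 to 4 in turn. The cast libraries held 5956148 to 7381255 reads and naive replicates 1 to 3 held 6038095 to 6805349, whereas naive replicate 4 held 1503880. In that library 1 read was worth 0.647, and 2264 genes were at 0, against 330 to 364 in cast and 487 to 608 in the other naive libraries. The capsule markers, 13 genes such as Col1a1, were present in all libraries. They summed to 26329 to 44350 in cast and 27767 to 46423 in naive libraries. Of the 13, Lum and Pdpn were higher in cast and 0 were lower (1 without naive replicate 4). Of the 13 genes 8 had negative log2 fold changes of cast over naive, and the median was -0.14. Of 25 skeletal muscle markers 23 were tested, of which 8 were lower in cast (22 without naive replicate 4) and 0 higher. Their summed value was 966, 70.9, 91.9 and 249 in the cast libraries, against 5084, 3623, 7179 and 226 in the naive libraries, so that naive replicate 4 lay among the cast libraries. By fibre type, 3 of 9 fast fibre markers were lower (9 without naive replicate 4), with a median log2 fold change of -3.58. Of 3 tested slow or oxidative fibre markers only Mb was lower, and their median was -0.19. All 7 tested erythroid markers and 8 of 9 neutrophil markers were higher in cast, and 4 of 10 white fat markers (Lep, Plin1, Pck1 and Lipe) were lower. In bulk tissue, fewer cells of a type and less RNA per cell cannot be told apart.

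Most oxidative phosphorylation genes did not differ between cast and naive capsules beyond the spread between libraries. Of the 82 genes, all of which passed the filter on low values (a mean of at least 0.5), 0 were higher and 1, Cox7a1, was lower in cast libraries by limma (Benjamini-Hochberg adjusted p of at most 0.05 over 15120 genes). Over all genes tested, 12% were called, 6.51% as higher and 5.46% as lower. The filter took the mean over all 8 libraries, and Cox7a1 and Cox4i2 passed it only through the group where they were high. Cox7a1 had a mean of 0.334 in cast and 2.30 in naive libraries, and Cox4i2 1.02 in cast and 0.359 in naive libraries. The median log2 fold change of the 82 genes was 0.06, against 0.07 for all genes tested, with a range of -1.42 to 1.66. Of the 82 genes 50 were above 0, against 8429 of the 15120 genes tested. Fold changes are given as cast minus naive after adding 1 to each value and taking log2, which understates the change of genes with low values. At an unadjusted p under 0.05 there were 4 of the 82 genes, against 4026 of the 15120 genes tested. Of the 4, Cox7a1 and Cox8b had lower and Cox4i2 and Atp5f1 higher cast means, and complexes I, II and III had 0 and complex V had 1 at that p. Atp5f1 was named after its values were seen. On recovered reads edgeR called 1 gene higher (Cox4i2) and DESeq2 0, and both called Cox6a2, Cox7a1 and Cox8b lower. Of all 15120 genes, edgeR called 1102 higher and 937 lower, and DESeq2 called 2754 in both directions together. The 4 cast values lay apart from the 4 naive values in 4 genes (Cox7a1, Cox8b, Cox4i2 and Ndufc2), against 20.5% of all genes tested.

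These data also bound the differences. The 95% interval of the log2 fold change stayed within 2-fold in either direction for 61 of the 82 genes (74.4%), against 54.0% of all genes tested. For the remaining genes a change of 2-fold lies within the interval, and a missed call does not show that such a gene was unchanged. The added 1 narrows the intervals of genes with low values, such as Cox6b2 (0.484 to 2.59), so their fold change is not bounded in this way. Without naive replicate 4, the shallow library, 1 gene (Cox4i2) was higher and 3 (Cox6a2, Cox7a1 and Cox8b) were lower, when 17.7% of all genes were called. The median of the 82 genes was then 0.17, against 0.01 for all genes. Of the 82 genes 69 were then above 0, against 7693 of the 15120 genes tested. Without cast replicate 1 the median was 0.22, against 0.08 for all genes, and with array weights 0.22, against 0.02.

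**Figure D1:**
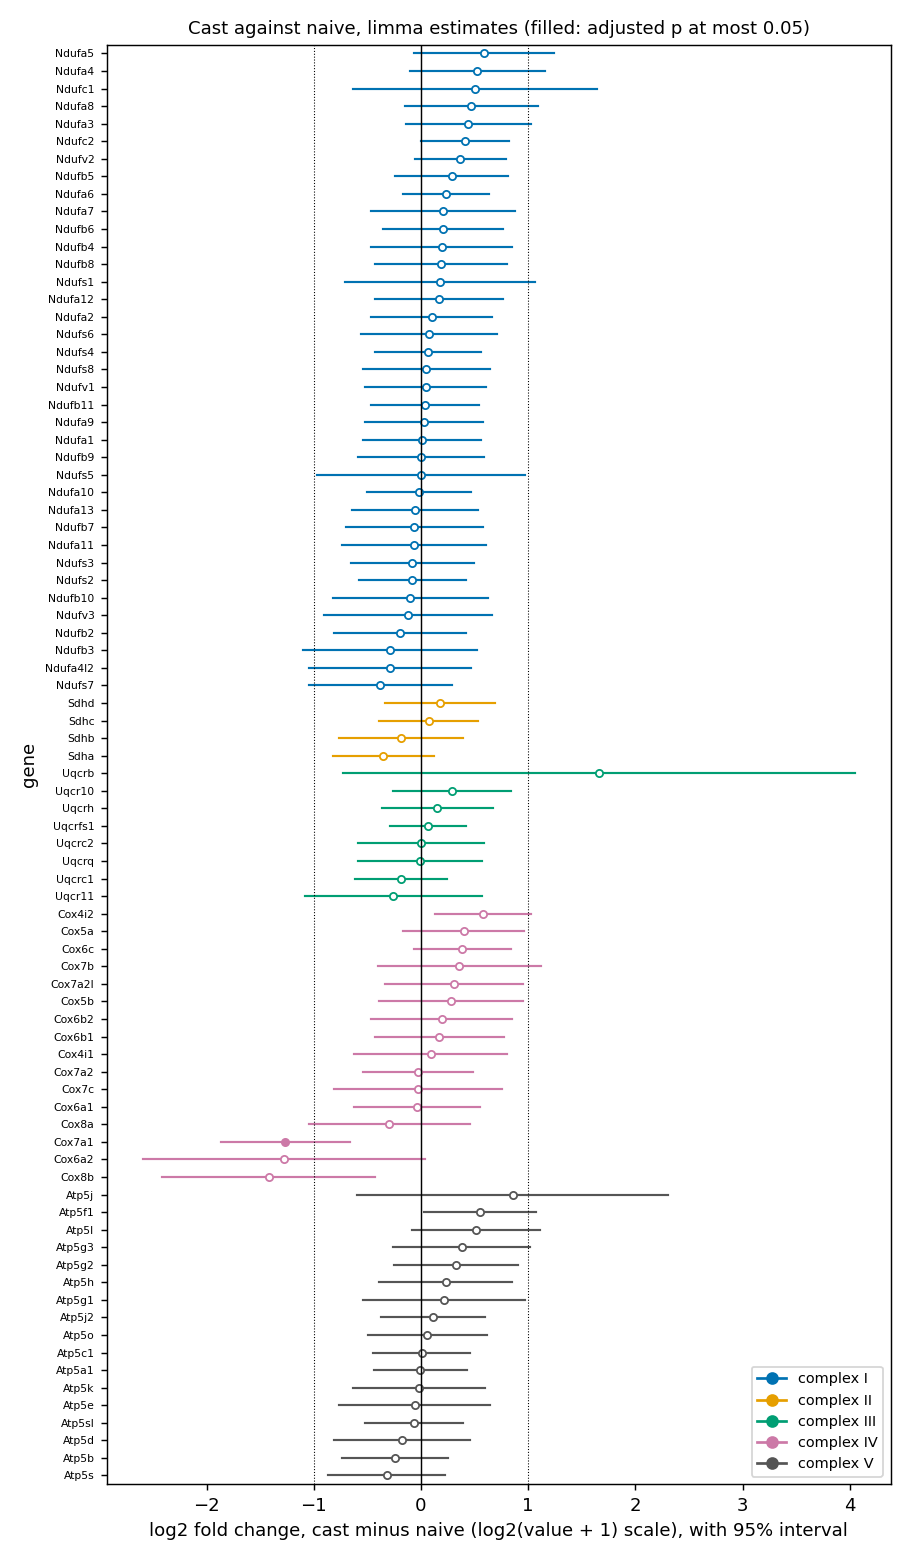
Log2 fold change of each of the 82 genes in cast over naive libraries, 1 being added to each value (x axis), with its 95% interval from limma, ordered within complexes I to V (colours); dotted lines mark 2-fold. Only Cox7a1 is filled (adjusted p of at most 0.05); Uqcrb, with a value of 0 in naive replicate 4, has the widest interval, -0.73 to 4.05.

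Complex I, the entry point for electrons from NADH, had 0 of 37 genes past the threshold and a median log2 fold change of 0.05, from -0.38 (Ndufs7) to 0.59 (Ndufa5). Of its peripheral arm, Ndufv1, which carries the flavin that accepts electrons from NADH, had values of 52.1, 74.6, 90.9 and 107 in the cast libraries, against 71.0, 57.1, 83.0 and 99.6 in the naive libraries (log2 fold change 0.04, 95% interval -0.52 to 0.61, limma adjusted p = 0.931). The groups overlapped over nearly their whole range. Ndufs1, the iron-sulphur subunit with the most clusters, had 63.5, 77.6, 75.5 and 91.9 in the cast libraries, against 106, 74.9, 100.2 and 25.9 in the naive libraries (log2 fold change 0.18, 95% interval -0.71 to 1.06, limma adjusted p = 0.813). Its lowest value by far was that of naive replicate 4, with 40 reads where the mean of the other naive libraries would give 145, and without that library its log2 fold change was -0.27. Ndufs7, which holds the cluster that passes electrons to ubiquinone, had 23.9, 33.3, 39.0 and 45.1 in the cast libraries, against 36.3, 31.3, 46.8 and 77.0 in the naive libraries (log2 fold change -0.38, 95% interval -1.05 to 0.29, limma adjusted p = 0.467).

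Of the membrane arm and the accessory subunits of complex I, Ndufb8, whose protein is often used to gauge assembled complex I, had 35.4, 61.4, 61.4 and 60.8 in the cast libraries, against 41.0, 33.1, 48.1 and 73.7 in the naive libraries (log2 fold change 0.18, 95% interval -0.43 to 0.80, limma adjusted p = 0.710). Cast replicate 1 lay apart below the other cast libraries and inside the naive range. Ndufa5, an accessory subunit of the peripheral arm, had 16.0, 19.8, 22.8 and 24.3 in the cast libraries, against 19.1, 13.6, 16.5 and 7.12 in the naive libraries (log2 fold change 0.59, 95% interval -0.07 to 1.24, limma adjusted p = 0.238). The naive values of replicates 1 and 3 lay inside the cast range and the other naive values below it. Ndufc2, an accessory subunit of the membrane arm, had 51.6, 47.8, 51.8 and 64.9 in the cast libraries, against 46.4, 32.1, 36.9 and 47.2 in the naive libraries (log2 fold change 0.41, 95% interval 0.00 to 0.82, limma adjusted p = 0.189), and it was chosen after its values were seen, as the gene of complex I whose groups did not overlap. The other 31 genes of the complex had log2 fold changes of -0.29 to 0.53. Among them Ndufa4l2, which is known to rise at low oxygen in other cells, had 3.30, 10.2, 10.1 and 6.67 in the cast libraries, against 5.73, 9.52, 10.4 and 10.3 in the naive libraries (log2 fold change -0.29, 95% interval -1.05 to 0.47, limma adjusted p = 0.630).

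Complex II, succinate dehydrogenase, which also serves the citric acid cycle, had 0 of 4 genes past the threshold, and the intervals of all 4 stayed within 2-fold. Sdha, the catalytic flavoprotein, had 166, 269, 255 and 290.3 in the cast libraries, against 281, 272, 324 and 356 in the naive libraries (log2 fold change -0.35, 95% interval -0.82 to 0.12, limma adjusted p = 0.328). Cast replicate 1 was the lowest library and the groups overlapped at 272 to 290.3. Sdhb, the iron-sulphur subunit, had 43.0, 61.9, 70.5 and 72.3 in the cast libraries, against 68.9, 47.6, 67.3 and 104 in the naive libraries (log2 fold change -0.19, 95% interval -0.77 to 0.39, limma adjusted p = 0.687). Of the membrane anchors, Sdhd had 40.2, 64.1, 71.4 and 78.0 in the cast libraries, against 55.3, 43.2, 63.5 and 56.9 in the naive libraries (log2 fold change 0.18, 95% interval -0.33 to 0.69, limma adjusted p = 0.658), and Sdhc had a log2 fold change of 0.07. In each of the 4 genes cast replicate 1 was the lowest of its group.

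Complex III, which oxidises ubiquinol and reduces cytochrome c, had 0 of 8 genes past the threshold and a median log2 fold change of 0.03. The core proteins were close between the groups. Uqcrc1 had 68.4, 112, 82.5 and 81.9 in the cast libraries, against 90.6, 89.2, 89.9 and 121 in the naive libraries (log2 fold change -0.19, 95% interval -0.62 to 0.24, limma adjusted p = 0.580). Uqcrc2 had 66.1, 91.9, 99.9 and 116 in the cast libraries, against 116, 83.9, 120.4 and 59.5 in the naive libraries (log2 fold change 0.00, 95% interval -0.59 to 0.59, limma adjusted p = 0.998). Uqcrfs1, the Rieske iron-sulphur protein through which electrons leave ubiquinol, had 46.3, 56.3, 55.9 and 67.8 in the cast libraries, against 51.7, 53.6, 56.5 and 53.0 in the naive libraries. Its log2 fold change of 0.06 had a narrow interval of -0.29 to 0.42 (limma adjusted p = 0.838). Uqcr11, the smallest subunit, had 30.5, 52.9, 60.0 and 72.8 in the cast libraries, against 55.8, 36.6, 59.0 and 120.3 in the naive libraries (log2 fold change -0.26, 95% interval -1.08 to 0.57, limma adjusted p = 0.702).

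Uqcrb, known as a ubiquinone-binding protein, had the highest log2 fold change of the 82 genes, and this rested on 1 library. Its values were 39.1, 42.7, 53.7 and 63.5 in the cast libraries, against 40.7, 29.8, 47.1 and 0 in the naive libraries (log2 fold change 1.66, 95% interval -0.73 to 4.05, limma adjusted p = 0.365). Naive replicate 4 had 0 reads where the mean of the other naive libraries would give 60.6, and a count of 0 allows a value of up to 1.94 there, for counting error only. Without that library the log2 fold change was 0.33 (limma adjusted p = 0.311), and all 7 remaining values lay between 29.8 and 63.5.

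In complex V, the ATP synthase, 0 of 17 genes passed the threshold and the median log2 fold change was 0.06. Atp5a1 and Atp5b encode the alpha and beta subunits of the catalytic head, where ATP is formed. Atp5a1 had 325, 476, 483 and 499 in the cast libraries, against 429, 402, 442 and 497 in the naive libraries, with a log2 fold change of 0.00 (95% interval -0.44 to 0.43, limma adjusted p = 0.991). Atp5b had 366, 554, 577 and 651 in the cast libraries, against 602, 540.3, 626 and 737 in the naive libraries (log2 fold change -0.24, 95% interval -0.74 to 0.25, limma adjusted p = 0.530). Cast replicate 1 was the lowest library in both, and the other cast values fell inside or near the naive range. Atp5j, coupling factor 6 of the stalk, had 41.5, 59.0, 72.5 and 72.7 in the cast libraries, against 66.6, 41.6, 64.5 and 5.82 in the naive libraries (log2 fold change 0.86, 95% interval -0.59 to 2.31, limma adjusted p = 0.447). Naive replicate 4 held 9 of its reads, where the mean of the other naive libraries would give 89.0, and without that library the log2 fold change was 0.09. Atp5s, known as coupling factor B, had the lowest log2 fold change of the complex, with 2.47, 4.65, 4.36 and 5.07 in the cast libraries, against 5.88, 4.19, 4.79 and 6.47 in the naive libraries (log2 fold change -0.32, 95% interval -0.87 to 0.23, limma adjusted p = 0.454).

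Atp5g1, Atp5g2 and Atp5g3 encode the same mature c subunit of the proton-carrying ring from separate genes. Atp5g1 had 25.4, 42.6, 57.5 and 52.9 in the cast libraries, against 30.1, 25.8, 34.2 and 66.6 in the naive libraries (log2 fold change 0.22, 95% interval -0.54 to 0.97, limma adjusted p = 0.722). Atp5g2 had 82.1, 108, 128 and 131 in the cast libraries, against 74.9, 65.7, 87.1 and 141 in the naive libraries (log2 fold change 0.32, 95% interval -0.26 to 0.90, limma adjusted p = 0.475). Atp5g3 had 61.8, 110.2, 124 and 136 in the cast libraries, against 94.9, 52.3, 94.9 and 83.4 in the naive libraries (log2 fold change 0.38, 95% interval -0.26 to 1.02, limma adjusted p = 0.440). All 3 had positive log2 fold changes that did not pass the test. As a share of the reads of these 3 genes, Atp5g2 held 48.5, 41.4, 41.4 and 41.0% in the cast libraries, against 37.5, 45.7, 40.3 and 48.4% in the naive libraries, and Atp5g1 held 15.0 to 18.6% in cast and 15.1 to 22.9% in naive libraries, so the shares overlapped.

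Complex IV held the one gene past the test. Of its 16 genes 1 was lower and 0 were higher, and its log2 fold changes ranged from -1.42 (Cox8b) to 0.58 (Cox4i2), with a median of 0.13. Cox7a1 (chr7:30184144-30186078, plus strand, build GRCm38, GENCODE M21), the muscle-type form of subunit 7a, had 0.494, 0.300, 0.409 and 0.133 in the cast libraries, against 3.01, 0.968, 2.65 and 2.59 in the naive libraries. Every cast value lay below every naive value. Its mean was 0.334 ± 0.156 in cast and 2.30 ± 0.910 in naive libraries (SD, n = 4 each), and it fell by 1.26 on the log2 scale (95% interval -1.87 to -0.66, limma adjusted p = 0.0160, lower in 4 of 4 cast libraries). The values rest on few reads, 9 in all cast libraries against 46 in all naive libraries. The call was lost without naive replicate 3 (adjusted p = 0.0515), with all libraries thinned to 1503880 reads (adjusted p = 0.0972), and under a stricter filter, where the gene was not tested. Over the alternatives the adjusted p ranged from 0.00126 to 0.0972.

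The other muscle-type forms had lower cast means as well and did not pass the test over all 8 libraries. Cox8b (chr7:140898945-140900446, minus strand), the muscle-type form of subunit 8, had 1.81, 4.50, 5.18 and 5.60 in the cast libraries, against 28.6, 12.3, 11.1 and 5.82 in the naive libraries (log2 fold change -1.42, 95% interval -2.41 to -0.43, limma adjusted p = 0.0680). The groups stood apart by a small gap, between cast replicate 4 and naive replicate 4. Without naive replicate 4 its log2 fold change was -1.75 (limma adjusted p = 0.0146). Cox6a2 (chr7:128205435-128206387, minus strand), the muscle-type form of subunit 6a, had 1.48, 0.450, 0.409 and 0.533 in the cast libraries, against 6.33, 4.03, 6.28 and 0 in the naive libraries (log2 fold change -1.28, 95% interval -2.60 to 0.04, limma adjusted p = 0.202). Naive replicate 4 had no read of it, below all cast libraries, and without that library the log2 fold change was -1.95 (limma adjusted p = 0.00172). Reads over the group numbered 121 in cast and 342 in naive libraries for Cox8b, and 19 in cast and 105 in naive libraries for Cox6a2.

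The levels of these 3 genes stood beside different levels of muscle RNA. Cox6a2 was highest among cast libraries in replicate 1, which also had the highest summed muscle markers of that group (966), and lowest in naive replicate 4, whose markers summed to 226. Cox8b was lowest among cast libraries in that replicate 1, at 1.81. Among naive libraries Cox8b was highest in replicate 1, at 28.6, and lowest in replicate 4, at 5.82. The naive library with the highest summed muscle markers was replicate 3 (7179). Cox7a1 had 0.133 to 0.494 in the cast libraries and 2.59 in naive replicate 4, where this value rests on 4 reads. With the mean level of the muscle markers as a covariate, Cox7a1 had a log2 fold change of -1.27 (limma adjusted p = 0.0475). Under the same covariate Cox8b had a log2 fold change of -1.02 (adjusted p = 0.271), and Cox6a2 changed sign to 0.62 (adjusted p = 0.273). Naive replicate 4 is the one naive library with muscle markers as low as in cast, and in that fit Uqcrb, which is at 0 in naive replicate 4, had a log2 fold change of 4.73 (adjusted p = 0.0115). The part of muscle RNA in the values of these genes was not tested. Markers of white fat summed to 3206 to 9070 in cast and 7542 to 11785 in naive libraries. The 4 tested brown fat markers summed to 72.8 to 195 in cast and 31.7 to 148 in naive libraries. Of these Cidea was lower in cast, and the other 3 had positive log2 fold changes short of the threshold (median of the 4 markers 0.14). Ucp1 and Zic1 have no listed value. The part of fat RNA in these values was not tested.

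Cox4i2 (chr2:152754173-152765037, plus strand) had a higher mean in cast libraries. Its values were 0.989, 1.05, 1.09 and 0.934 in the cast libraries, against 0.301, 0.323, 0.165 and 0.647 in the naive libraries (log2 fold change 0.58, 95% interval 0.13 to 1.03, limma adjusted p = 0.0967). The cast values were all above the naive ones and close to each other, on 28 reads in cast against 6 reads in naive libraries. Without naive replicate 4, which had 1 of these reads, the log2 fold change was 0.68 (limma adjusted p = 0.0377).

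The widely expressed partners did not pass the threshold, and the interval of Cox8a reached beyond 2-fold. Cox7a2 had 34.3, 41.7, 54.5 and 55.7 in the cast libraries, against 49.4, 32.7, 50.9 and 56.9 in the naive libraries (log2 fold change -0.03, 95% interval -0.54 to 0.48, limma adjusted p = 0.951). Cox6a1 had 61.1, 92.9, 95.2 and 107 in the cast libraries, against 78.8, 67.3, 84.3 and 144 in the naive libraries (log2 fold change -0.04, 95% interval -0.63 to 0.56, limma adjusted p = 0.943). Cox8a had 78.0, 117, 140.2 and 166 in the cast libraries, against 126, 100.3, 138 and 277 in the naive libraries (log2 fold change -0.29, 95% interval -1.04 to 0.45, limma adjusted p = 0.622). For each of these the groups overlapped, and naive replicate 4 was the highest naive library. Cox4i1, the common form of subunit 4, had 169, 227, 229.9 and 322 in the cast libraries, against 201, 144, 189 and 402 in the naive libraries (log2 fold change 0.09, 95% interval -0.62 to 0.80, limma adjusted p = 0.885). Cox5a and Cox5b, which sit on the matrix side of the complex, were also short of the threshold. Cox5a had 32.3, 49.8, 51.3 and 63.7 in the cast libraries, against 46.9, 32.3, 42.2 and 26.5 in the naive libraries (log2 fold change 0.40, 95% interval -0.16 to 0.96, limma adjusted p = 0.355), and Cox5b had a log2 fold change of 0.28 (limma adjusted p = 0.596).

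The balance within each pair was taken as a log2 ratio inside each library, which does not depend on the scaling of the library except through the added 1. The ratio of Cox7a1 to Cox7a2 averaged -5.14 ± 0.46 in cast and -3.90 ± 0.20 in naive libraries (SD, n = 4 each), a difference of -1.24 with no overlap. Its two-sided exact permutation p was 0.0286, the smallest that 4 against 4 libraries allow, and 0.114 after Benjamini-Hochberg adjustment over the 4 pairs. The ratio of Cox6a2 to Cox6a1 differed by -1.24 (exact permutation p = 0.257, adjusted 0.286) and that of Cox8b to Cox8a by -1.13 (exact permutation p = 0.143, adjusted 0.286). Cox4i2 to Cox4i1 differed by 0.49 (exact permutation p = 0.286, adjusted 0.286). As Cox4i2 values were only 0.165 to 1.09, the added 1 and Cox4i1 weigh heavily in this ratio, so its p does not settle the balance. None of the 4 ratios passed the threshold after adjustment. A pair that alone reaches the smallest permutation p gets an adjusted p of 0.114, so the adjusted test could not call Cox7a1 to Cox7a2 by itself. As a share of the reads of its pair, Cox7a1 held 1.42, 0.714, 0.744 and 0.239% in the cast libraries, against 5.75, 2.87, 4.94 and 4.35% in the naive libraries. Cox8b held 2.27, 3.70, 3.56 and 3.27% in the cast libraries, against 18.5, 10.9, 7.44 and 2.05% in the naive libraries. Cox6a2 held 2.37, 0.482, 0.428 and 0.494% in the cast libraries, against 7.43, 5.66, 6.93 and 0% in the naive libraries. Cox4i2 held 0.582, 0.461, 0.472 and 0.289% in the cast libraries, against 0.149, 0.223, 0.0873 and 0.161% in the naive libraries. The shares of Cox7a1 and Cox4i2 did not overlap between the groups, and those of Cox8b and Cox6a2 did so through naive replicate 4 alone.

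**Figure D2:**
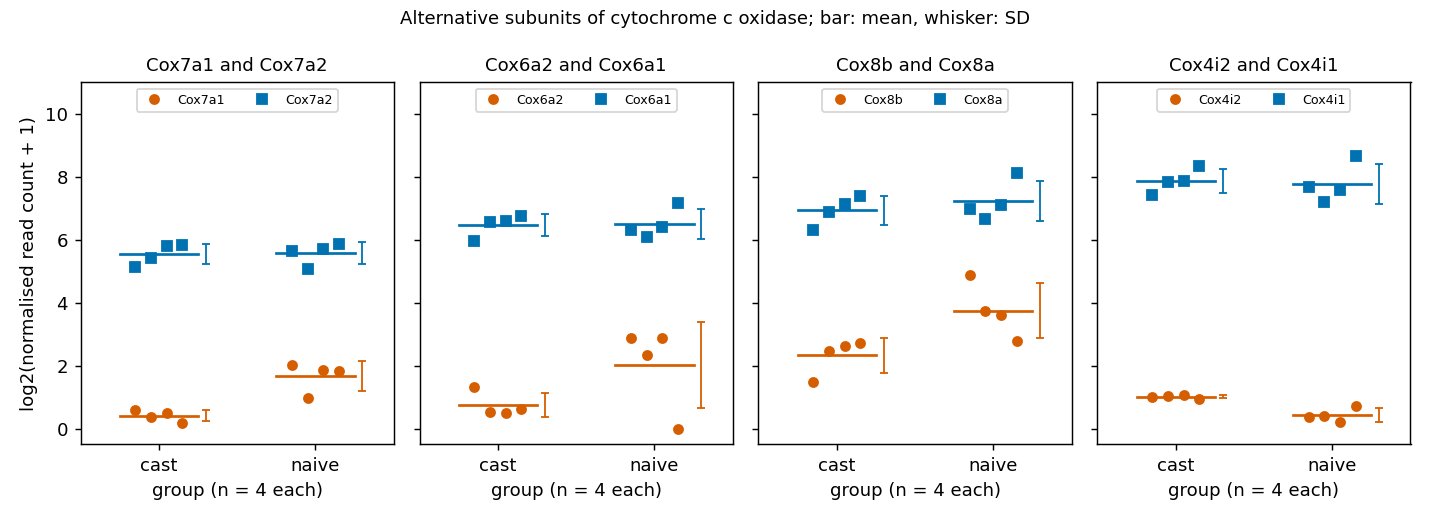
Normalised read counts of the alternative subunits of cytochrome c oxidase on a log2(value + 1) axis, 1 point per library, with the mean as a bar and the SD as a whisker (n = 4 each). Cox7a1 lies lower in all 4 cast libraries (0.133 to 0.494) than in the naive libraries (0.968 to 3.01), while Cox7a2 overlaps.

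Per transcript length, 3 of these genes had the lowest levels in cast libraries. The mean normalised read count per kb had a median over 81 genes with a transcript length of 60.5 in cast and 58.5 in naive libraries, and the levels of the 2 groups correlated across genes (Spearman rho = 0.965, genes not being independent replicates). Medians per kb were 40.5 in cast and 39.4 in naive libraries for complex I, and 52.9 in cast and 53.7 in naive libraries for complex II. They were 79.8 in cast and 63.2 in naive libraries for complex III, and 99.6 in cast and 87.2 in naive libraries for complex IV. Complex V had the highest medians, 105 in cast and 101 in naive libraries. The highest levels were those of Cox4i1, with 314 per kb in cast and 310.1 in naive libraries, and Atp5b, with 280.2 in cast and 327 in naive libraries. The lowest means in cast libraries were those of Cox7a1, with 0.761 per kb in cast and 5.25 in naive libraries, Cox6a2, with 1.06 in cast and 6.12 in naive libraries, and Cox4i2, with 1.39 in cast and 0.492 in naive libraries. In naive libraries Cox4i2 was also the lowest, but Cox6b2, a testis form of subunit 6b, with 3.20 in cast and 2.74 in naive libraries, and Atp5s, with 2.68 in cast and 3.46 in naive libraries, lay below Cox7a1 and Cox6a2. Together with Cox8b, Cox7a1, Cox6a2 and Cox4i2 were the 4 genes whose group means differed by over 2-fold.

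**Figure D3:**
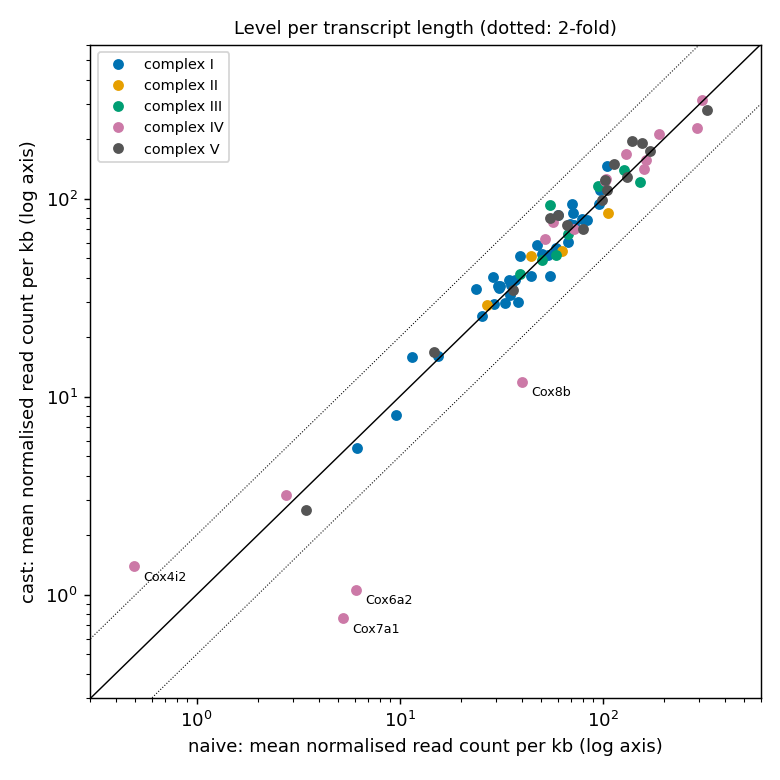
Mean normalised read count per kb of transcript in cast (y axis) against naive libraries (x axis), both log axes, for 81 genes coloured by complex; the line marks equal levels and the dotted lines 2-fold. Cox7a1, Cox6a2, Cox8b and Cox4i2 lie beyond 2-fold, and the other 77 genes lie between the dotted lines.

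Within each group the genes moved together from library to library. Their mean log2 level was 4.996, 5.43, 5.65 and 5.74 in the cast libraries, against 5.46, 5.01, 5.51 and 5.55 in the naive libraries. The spread within the groups was thus wider than the difference between them. Cast replicate 1 was the lowest of the cast libraries for 72 of the 82 genes (87.8%), against 33.8% of all genes tested. Cast replicate 4 was the highest for 61 (74.4%, against 27.1% of all genes). Naive replicate 2 was the lowest of the naive libraries for 62 genes (75.6%, against 18.3%), and naive replicate 4 was the highest for 52 (63.4%, against 37.4%). The sum of the 82 genes made up 0.411, 0.562, 0.625 and 0.708% of all values in the cast libraries, against 0.535, 0.405, 0.569 and 0.715% in the naive libraries.

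**Figure D4:**
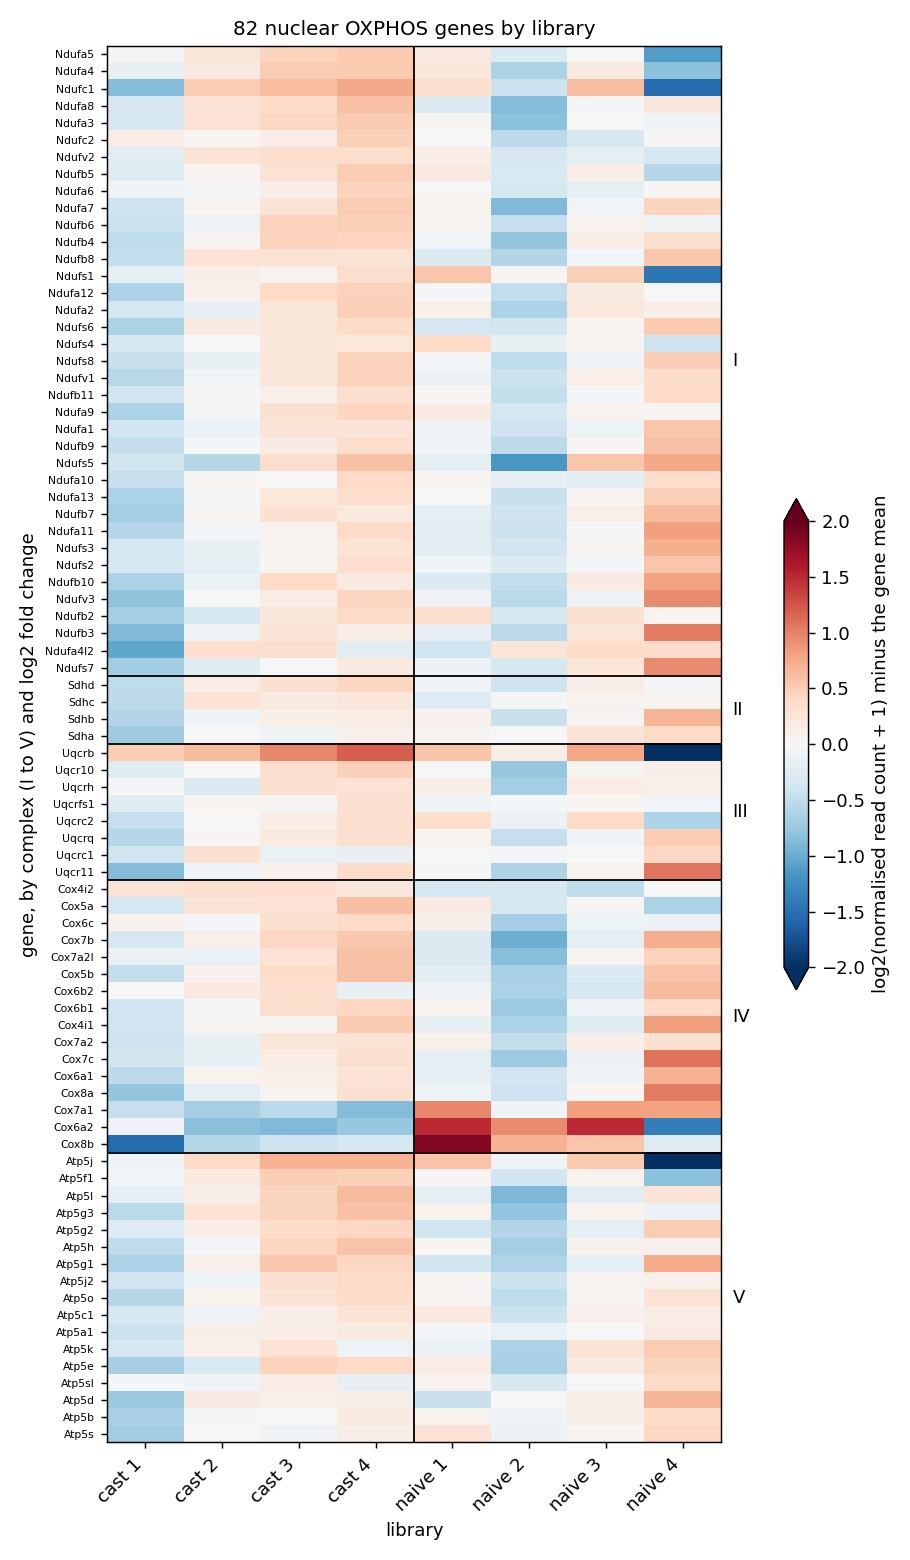
Log2(normalised read count + 1) of the 82 genes (rows, by complex and log2 fold change) in the 8 libraries (columns), as the difference from the mean of each gene; red is above and blue below the mean, and colours end at 2 in either direction. Cast replicate 1 and naive replicate 2 are blue through most of the genes, and Cox7a1, Cox6a2 and Cox8b differ from the rest.

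Some other gene groups were also low in cast replicate 1. As the mean deviation from the group mean on the log2 scale, the 82 genes stood at -0.46, -0.02, 0.19 and 0.29 in the cast libraries and at 0.08, -0.38, 0.12 and 0.17 in the naive libraries. Cytosolic ribosomal protein genes stood at -0.43, -0.24, 0.29 and 0.38 in cast and at -0.03, -0.59, 0.22 and 0.39 in naive libraries. Mitochondrial ribosomal protein genes stood at -0.39, -0.08, 0.19 and 0.27 in cast and at 0.00, -0.26, 0.04 and 0.21 in naive libraries. Over all genes tested, the deviations were -0.01 to 0.03 in cast and -0.19 to 0.07 in naive libraries. Macrophage markers stood at -0.22, -0.19, 0.05 and 0.36 in cast and at -0.01, -0.41, -0.05 and 0.47 in naive libraries. In cast replicate 1 the genes of the citric acid cycle stood at -0.37, those of glycolysis at -0.35 and white fat markers at -0.95. The median transcript length was 747.5 bases for the 82 genes, 811 for cytosolic and 1223 for mitochondrial ribosomal proteins, against 2704 for all genes tested. It was 1641 for macrophage markers, 1685 for white fat markers, 1895 for glycolysis and 2089.5 for the citric acid cycle. In lists longer than 2704 bases, cast replicate 1 stood at 1.56 for skeletal muscle markers (2728.5) and 0.27 for capsule markers (3094). It stood at 0.32 for brown fat markers (3173), 0.09 for biogenesis regulators (3180) and -0.12 for endothelial markers (4135). Some shorter lists were also above 0 there, such as erythroid markers (703) at 0.59 and fast fibre markers (965) at 2.00. The part of transcript length, RNA quality or the mix of cells in this pattern was not tested.

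**Figure D5:**
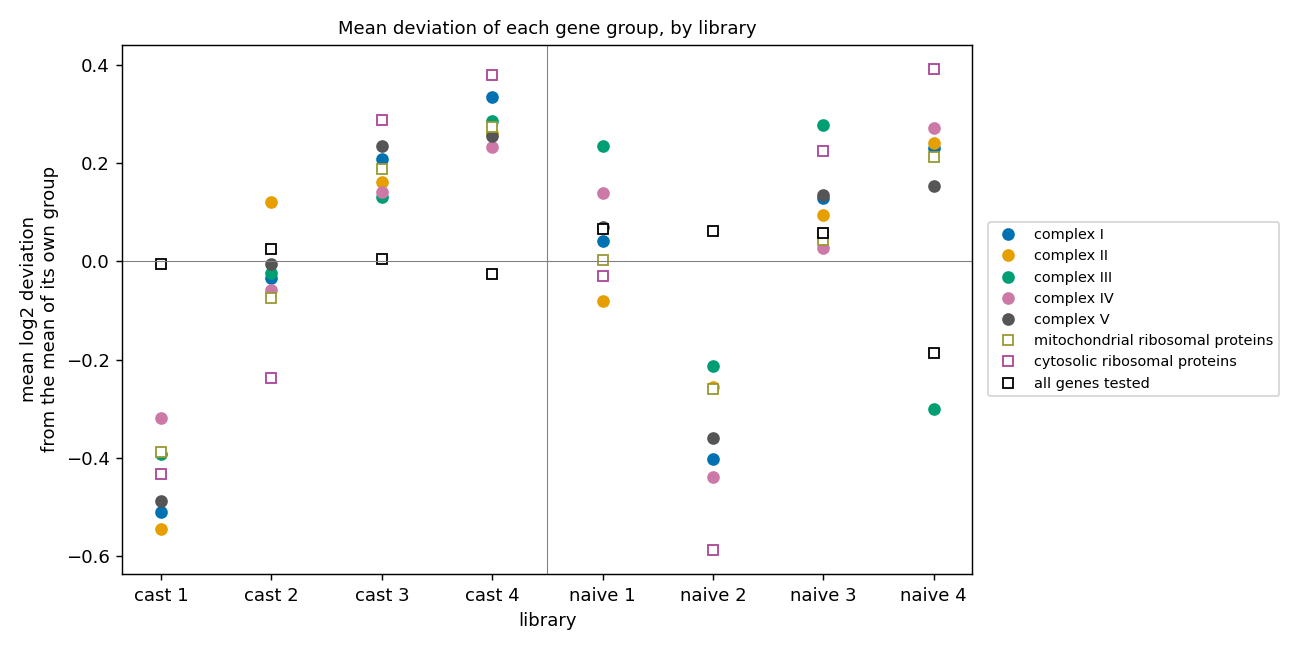
Mean deviation of each gene group from the mean of its own group of libraries (y axis, log2 scale) in the 8 libraries (x axis; replicates have no order); filled circles are complexes I to V and open squares are ribosomal protein genes and all genes tested. Cast replicate 1 and naive replicate 2 are low in all 5 complexes, and complex III is also low in naive replicate 4 (-0.30), where Uqcrb is at 0.

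Other mitochondrial genes were set beside these from lists of related pathways. Of 44 tested assembly factors, which build the complexes, 0 passed limma's threshold (3 at an unadjusted p under 0.05, against 4026 of all 15120 genes; median log2 fold change 0.03). Of 8 further subunits, inhibitors and cytochrome c genes 0 did so (0 unadjusted; median 0.18). Mitochondrial ribosomal proteins had 0 of 77 (4 unadjusted; median 0.08) and the import machinery 0 of 23 (1 unadjusted; median 0.15). Over all genes tested, 5.46% were called lower and 6.51% higher. In the citric acid cycle 2 of 20 genes were lower, with a median of -0.23. These were Cs, citrate synthase, which opens the cycle (log2 fold change -0.71, limma adjusted p = 0.0482), and Pdhb, a subunit of pyruvate dehydrogenase (-0.76, adjusted p = 0.0403). In fatty acid oxidation 0 of 19 genes passed (5 unadjusted), with a median of -0.31. Among carriers and channels 1 of 12 was lower, Ucp3, an uncoupling protein of muscle and brown fat (log2 fold change -1.65, limma adjusted p = 0.0127). Of 20 regulators of mitochondrial biogenesis 1 was lower, the nuclear receptor gene Esrrb (-1.03, limma adjusted p = 0.0366).

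Glycolysis, which makes ATP in the cytosol, had 4 of 18 genes lower (5.46% over all genes tested) and 0 higher (median -0.20). They were Hk2, a hexokinase (log2 fold change -1.13, limma adjusted p = 0.0103), Pfkm, the muscle form of phosphofructokinase (-1.55, adjusted p = 0.00195), Pfkp, its platelet form (-0.82, adjusted p = 0.0355), and Eno3, the muscle enolase (-2.49, adjusted p = 0.0158). Eno3 is also among the muscle markers, which were lower in cast, and the part of muscle RNA in these genes and in Ucp3 was not tested. Of 83 cytosolic ribosomal protein genes 8 were higher (6.51% over all genes tested) and 0 lower, with a median of 0.72. Without naive replicate 4, 50 of them were higher and 1 was lower, against 1384 higher and 1288 lower of all 15120 genes. Without that library 5 genes of the citric acid cycle, 5 of glycolysis, 2 of the carriers and 2 biogenesis regulators were lower, and 0 in these lists were higher. Of the further subunits and cytochrome c genes 2 were then higher, and of the import machinery 1. Fatty acid oxidation had 1 higher and 1 lower, and assembly factors and mitochondrial ribosomal proteins had 0 past the threshold.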

How the data were processed

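RNA-seq libraries of the posterior knee joint capsule, 4 cast and 4 naive, were compared. Per the labels' protocols, 200 ng of total RNA was depleted of ribosomal RNA, made into directional libraries and sequenced as paired reads of 150 nt. The extract protocol names Trimmomatic 0.38 and the human build hg38, with Bowtie2 in RSEM, whereas the build is mm10 and the trimming tool Trimmomatic 0.36, with edgeR also listed, per the submitters' processing notes. The symbols in the table are of mouse genes. Whether counting used the strand is not given in the sources used here. Overlapping genes, and reads shared with processed pseudogenes, are uncertain.

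The deposited signal is a normalised read count per gene and library. All values were whole multiples, within 0.01, of the value of 1 read (100% of genes), so each library had been divided by 1 factor, and the smallest sum of reads listed for a gene was 8. Depth limits precision: intervals and zero-count limits cover counting error only. Values were compared as log2(value + 1) with limma-trend (genes with a mean of at least 0.5, 15120 of 16464; Benjamini-Hochberg adjustment, threshold 0.05). Ratios were tested by exact permutation over 70 assignments. In simulated data limma called 10.3% of 97 genes changed 2-fold and 70.9% of 103 genes changed 4-fold. The spread there was set and not taken from these libraries, so these shares need not hold here. Coordinates and lengths came from GENCODE M21 (81 of 82 genes matched), promoters from RefSeq.

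Members and gene lists were chosen with earlier results of these data known. Genes named were those past the threshold, the highest and lowest log2 fold change of each complex, the genes of 4 isoform pairs and a panel of core subunits. Alternatives were a pseudocount of 0.5 or 5, a filter at 2.5 or none, median-of-ratios or quantile scaling, scaling without marker genes, limma without a trend, array weights, a muscle covariate, a replicate block, edgeR and DESeq2 on recovered reads, each library left out in turn, and, chosen after seeing the data, 2 libraries left out together and thinning. Fits used limma 3.58.1, edgeR 4.0.16 and DESeq2 1.42.0 in R 4.3.3. Summaries and plots used matplotlib 3.10.9, numpy 2.4.6 and pandas 2.3.3 in Python 3.11.15. Raw reads were not used here.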

Additional observations from a re-analysis of the deposited data

Results flagged for a closer look

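In groups of 4 libraries, the highest or lowest library was compared with the others by the size of its gap against the range of the group (Dixon's test at its 95% critical value). Of 80 groups of values tested 8 stood out this way, and chance gives about 1 in 20. In cast replicate 1, Atp5a1 was far below the other cast libraries at 325 and Ndufb8 at 35.4, whereas Cox6a2 was far above them at 1.48 and the log2 ratio of Cox6a2 to Cox6a1 was the highest of its group at -4.65. In naive replicate 4, Uqcrc1 was far above the other naive libraries at 121, and the log2 ratio of Cox6a2 to Cox6a1 was the lowest at -7.18, with 0 reads of Cox6a2. In naive replicate 2, the mean log2 level of all 82 genes was far below the other naive libraries at 5.01, and that of complex V at 5.57.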

How the results depend on the processing

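Over all 8 libraries 0 members were higher, 1 was lower and 1810 of all genes were called. Members lower numbered 0 with a filter at 2.5, where Cox7a1 was not tested, and 0 in libraries thinned to one depth, against 2 with quantile normalisation, 3 with array weights, 3 with edgeR, 3 with DESeq2 and 6 with the muscle covariate. Members higher numbered 8 with array weights, 2 with the muscle covariate and 1 with edgeR. Leaving out naive replicate 4 and cast replicate 1 together, an alternative chosen after seeing the data, gave 8 higher and 3 lower. Leaving out 1 library gave 0 to 1 members higher, 0 to 3 lower and 920 to 2672 genes called in all. Genes called in all were 3985 with array weights, 4197 with the muscle covariate (2805 higher and 1392 lower), 2039 with edgeR, 2754 with DESeq2 and 3275 without both libraries. The median of the members was -0.34 with the muscle covariate, when it was 0.11 for all genes. The cause of these shifts was not tested. Replicate numbers did not pair the libraries (correlations of same-numbered deviations -0.06 to 0.08, and cast replicate 1 correlated best with naive replicate 2, at 0.23). With the number as a replicate block, 1371 genes were called and Cox7a1 had an adjusted p of 0.0358. The replicate block gave each isoform ratio an adjusted p of 0.25, where the smallest unadjusted p is 0.125. Of 687 alternative values of the named members 61, in 20 members, changed sign, 0 of them past the threshold. Depth limits the genes of few reads, above all Cox7a1, Cox6a2 and Cox4i2.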

Other observations

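Naive replicate 4 departed from the other naive libraries in both directions, gene by gene. It was over 2-fold from the median of the other 3 naive libraries in 16 of the 82 genes (19.5%), against 24.7% of all genes tested. Cast replicate 1 was so in 7 (8.54%, against 7.42% of all genes), and each of the other libraries in 0 or 1. Cox7c, a small subunit of complex IV, had 261 reads in naive replicate 4 where the mean of the other naive libraries would give 97.5. Ndufc1, a small subunit of complex I, had 4 reads where 17.2 would be given. These 2 genes were chosen after their values were seen.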
